A study of Mus musculus with 15 samples.

Results

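The genes of the cytosolic ribosome were followed across end-stage tumors of 4 syngeneic mouse glioma lines and naïve brain. Members were the protein-coding genes whose GENCODE mouse symbol begins with Rpl or Rps and a number, together with Rplp0, Rplp1, Rplp2 and Rpsa. The S6 kinase genes and rows with a pseudogene symbol ending in -ps and a number were left out. This rule found 86 of the 46679 genes of the files, 52 named for the large subunit and 34 for the small subunit, spread over 19 chromosomes and with 4 members on the X chromosome. Of these, 82 passed the filter on low counts and were tested. Rps12, Rpl3l, Rpl10l and Rpl39l were not.

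All 15 samples came from C57BL/6 mice, with 3 mice in each of 5 groups. Tumor cells were implanted at 6 to 8 weeks of age and tissue was taken when each mouse reached its endpoint, so the age at collection, and that of the naïve mice, is not given in the sources used here. CT2A is a chemically induced line with wild-type p53, and GL261 is a chemically induced line with mutant K-ras and p53. The 005 line carries activated H-ras and AKT on a p53+/- background, and Mut3 was made by inactivation of tumor suppressors that include NF1 and p53. Each tumor group rests on 1 cell line that carries GFP and Firefly luciferase (Fluc), implanted at 100000 cells per brain for CT2A, GL261 and 005 and at 500000 for Mut3. The fifth group was brain of naïve mice. RNA came from whole excised tissue, so host cells were measured together with tumor cells, and fewer cells of a type and less RNA per cell cannot be told apart.

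A cytosolic ribosome is built from ribosomal RNAs and many small proteins that are needed in matched amounts. Most mammalian ribosomal protein mRNAs begin with a C followed by a run of pyrimidines, the 5′ terminal oligopyrimidine (TOP) tract, through which mTOR signaling controls their translation. Ribosomal protein genes have also left many processed pseudogenes in the mouse genome, intronless copies made from mRNA whose sequence can be identical to the gene.

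The tract can be read directly at the annotated start of several members. RefSeq start windows on GRCm38.p6 were found for 66 of the 86 members. The windows below are those of named members with such a tract, followed by 3 members that lack it for contrast. Most named members shared that lack at the annotated start, among them Rplp0, Rpl10, Rpl11 and Rps4x, so the 3 do not stand for paralogs or non-ribosomal genes. Each run holds the 15 bases before and the first 15 bases after the start, 5′ to 3′ on the gene's strand, and the capitals mark the C and the pyrimidines that follow it from the first transcribed base.
Rps6 (chr4:86857353-86857382, minus strand): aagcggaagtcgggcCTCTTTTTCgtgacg
Rplp2 (chr7:141447636-141447665, plus strand): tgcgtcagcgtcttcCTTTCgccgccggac
Rps15a (chr7:118116133-118116162, minus strand): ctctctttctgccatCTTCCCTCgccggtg
Rpl15 (chr14:18270972-18271001, minus strand): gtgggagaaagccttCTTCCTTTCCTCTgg
Rps27 (chr3:90213634-90213663, minus strand): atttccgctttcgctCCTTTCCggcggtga
Rps27rt (chr9:114982725-114982754, minus strand): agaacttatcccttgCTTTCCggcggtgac
Rpl22l1 (chr3:28805493-28805522, plus strand): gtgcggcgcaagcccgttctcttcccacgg
Rpl7l1 (chr17:46782642-46782671, minus strand): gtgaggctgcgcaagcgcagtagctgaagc
Rps19bp1 (chr15:80264292-80264321, minus strand): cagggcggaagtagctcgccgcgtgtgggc

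A C followed by at least 4 pyrimidines stood exactly at the annotated start in 14 of 66 members (21.2%), against 2.74% of 16337 protein-coding genes with a window. The letters CTTTC, on the sense strand within 20 bases before to 30 bases after the start, were found in 23 of 66 members (34.8%) and in 6.84% of protein-coding genes. On the antisense strand of the same stretch they were found in 10.6% and 6.51%. CCGGAAG, on either strand of the whole 300-base window, was found in 39.4% of members and 13.4% of protein-coding genes, whereas CACGTG was about as frequent in members (9.09%) as in all (9.23%). Some of these matches overlap the tract. In CT2A against naïve brain, the 14 members with a tract at the start had a median log2 fold change of 1.56 and the other 48 with a window and a test one of 1.67. Corresponding medians were 1.36 and 1.397 for GL261, 1.09 and 1.301 for 005 (1.33 and 1.53 without its replicate 3), and 1.41 and 1.41 for Mut3. The match required the tract exactly at the annotated base, so members without it may still carry one at a start some bases away. The split therefore cannot compare TOP mRNAs with others.

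Ribosomal protein genes took a larger share of the transcriptome in every tumor sample than in any naïve brain. Their summed TPM, in which counts are divided by length and scaled to a fixed total, was 6.88%, 6.99% and 7.24% of the total in the 3 naïve brains. CT2A tumors had 12.2%, 12.9% and 12.4%, GL261 tumors 11.9%, 11.2% and 11.1% and, for Mut3, 11.98%, 11.4% and 10.7%. In 005 tumors it was 13.2% and 11.9% in replicates 1 and 2 but 8.26% in replicate 3. Among the raw counts the members' share was 4.53% to 5.27% in naïve brain, 6.17% in 005 replicate 3 and 11.99% to 15.5% in the other tumors.

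**Figure D1:**
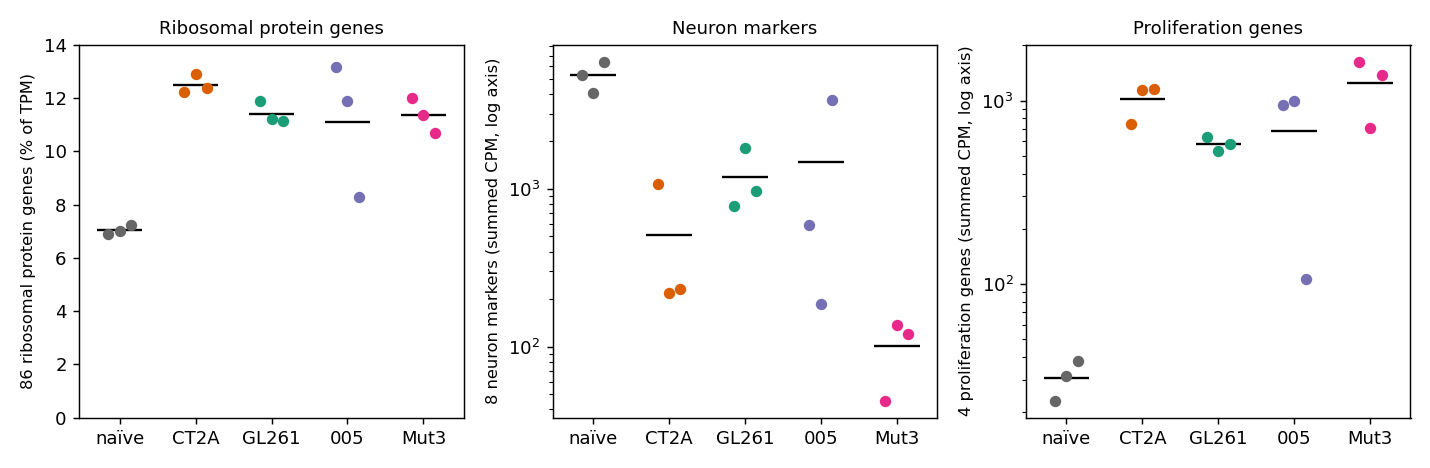
Summed level of the 86 ribosomal protein genes as a percentage of TPM (left), of 8 neuron markers in summed CPM (middle, log axis) and of 4 proliferation genes in summed CPM (right, log axis) in each of the 15 samples, with bars at the group means. Ribosomal protein genes lie between 6.88% and 7.24% in naïve brain, and 005 replicate 3, at 8.26%, is the tumor sample nearest to them.

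Library depth ran from 3105119 to 13130158 counts and was lowest in the naïve brains. Neuron markers (Snap25, Syt1, Rbfox3, Nefl, Stmn2, Slc17a7, Gad1 and Gad2) moved against the ribosomal protein genes: their summed level was 4035 to 6406 TMM-scaled counts per unit of depth (CPM) in naïve brain. CT2A had 220.1 to 1080 CPM, GL261 775 to 1804 CPM and Mut3 45.4 to 136.9 CPM. All 8 passed the test in CT2A and in Mut3, all lower, and 0 of 8 in GL261 or 005, but all 8 were called lower in 005 without its replicate 3. The summed level of Mki67, Top2a, Cdk1 and Ccnb1, genes of dividing cells, was 23.1 to 38.1 CPM in naïve brain and 527 to 1631 CPM in CT2A, GL261, Mut3 and the first 2 of the 005 tumors. The 005 replicate 3 sample stood apart on both, with 3653 CPM of neuron markers and 106.9 CPM of proliferation genes. Many results on 005 are therefore given with and without it. Mitochondrially encoded genes held 14.97% to 23.97% of counts in naïve brain, 17.8% in 005 replicate 3 and 3.48% to 11.3% in the other tumors. Of the other marker lists, 4 of 7 microglia and macrophage genes rose in CT2A (1 fell), GL261 and 005 as did 3 of 3 tested T cell genes, while in Mut3 0 of either list rose and 3 microglia and macrophage genes fell. Oligodendrocyte genes (3 of 5) and astrocyte genes (2 of 4) fell in CT2A and in Mut3, where 1 astrocyte gene rose, as 1 did in GL261. Of 3 endothelial genes 1 fell in CT2A and 1 in Mut3, and of 4 red blood cell genes 4 fell in GL261 and 1 in Mut3. In 005 0 genes of these last 4 lists were called, and without replicate 3 4 oligodendrocyte genes, 1 astrocyte gene and 1 microglia or macrophage gene fell and 1 endothelial gene rose. The part of tissue composition in the results that follow was not tested.

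Gene by gene, the increase ran through nearly the whole set, and no tested member was called lower in any tumor. A member was called where the adjusted p of edgeR's quasi-likelihood test, over 17481 genes in 1 fit of all samples, was under 0.05. In CT2A 76 of 82 members were higher (20.3% of all tested genes were higher and 21.7% lower), with a median log2 fold change of 1.64 against -0.04 over all tested genes. In GL261 71 of 82 were higher (15.1% of all genes higher, 8.45% lower), with a median of 1.42 against -0.08. In Mut3 71 of 82 were higher (19.3% of all genes higher, 21.0% lower), with a median of 1.42 against 0.11. In 005 56 of 82 were higher (11.8% of all genes higher, 1.13% lower), with a median of 1.22 against 0.01. Members are highly expressed, and over the 2930 genes at 10 TPM or more the medians were higher than over all tested genes. They were 0.46, 0.27, 0.25 and 0.52 in CT2A, GL261, 005 and Mut3. Of the 82 members, 50 were called in all 4 tumors, 21 in 3, 3 in 2, 5 in a single tumor and 3 in none.

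The 005 count was the least steady. Without 005 replicate 3, 72 of 82 members were higher (18.6% of all genes) with a median of 1.47. The count was 21 without 005 replicate 1 and 24 without replicate 2, and 21 or 30 without naïve replicate 1 or 2. When only the 005 and naïve samples were fitted, 1 member was called at a median of 1.301.

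On the TPM scale the members' differences were smaller, and that scale was shifted as a whole. The median difference in log2(TPM + 1) over all tested genes was -0.38, -0.35, -0.23 and -0.27 in CT2A, GL261, 005 and Mut3. The members' medians were 0.68, 0.63, 0.56 and 0.62, which lay 1.06, 0.98, 0.79 and 0.89 above those of all genes. Over the 2930 genes at 10 TPM or more, the medians on this scale were -0.46, -0.47, -0.30 and -0.24. The direction of 4 calls turned on this scale: Rpl15, Rpl21 and Rps21 in CT2A and Rpl29 in Mut3. By subunit, medians were 1.53 for the large and 1.83 for the small subunit in CT2A, 1.38 and 1.43 in GL261, 1.11 and 1.33 in 005 and 1.39 and 1.58 in Mut3. Without 005 replicate 3 the 005 medians were 1.35 and 1.54.

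**Figure D2:**
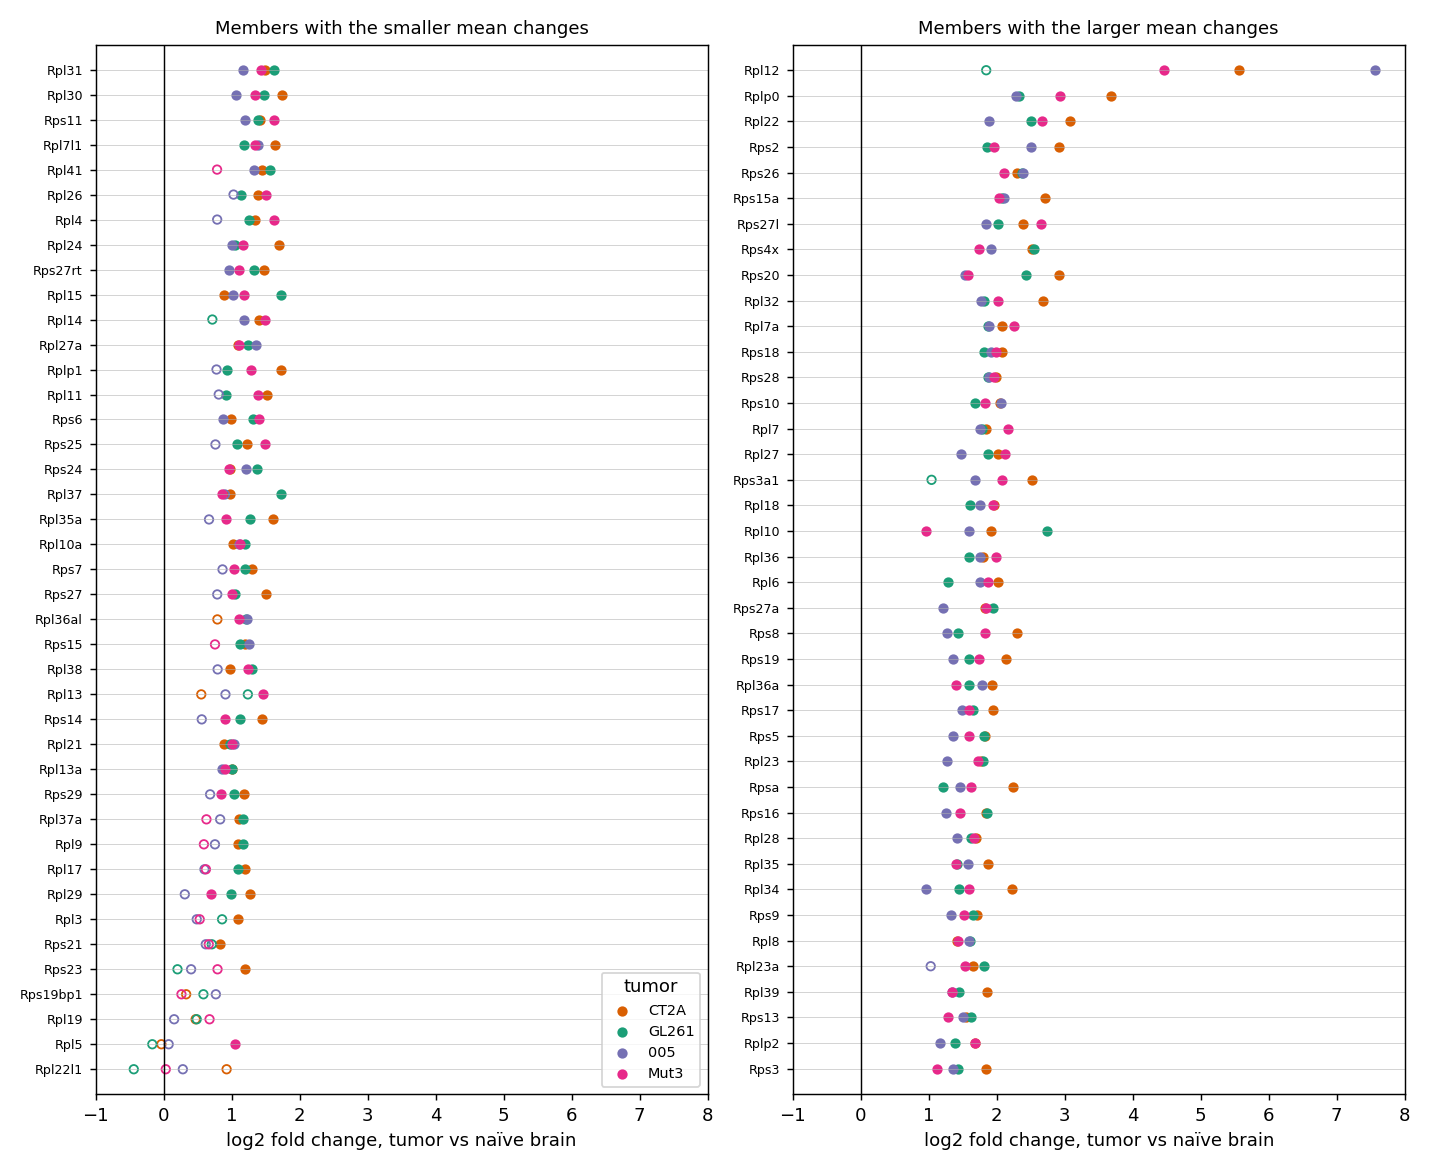
log2 fold change of tested members in each tumor against naïve brain, ordered by their mean over the 4 tumors, with filled points for members called at an adjusted p under 0.05 and open points for the rest. Rpl12 reaches 7.56 in 005, and Rpl22l1 and Rpl5 lie on both sides of 0.

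The stalk proteins, which recruit translation factors to the large subunit, rose by different amounts. Rplp0, which anchors the stalk, was at 1056, 704 and 1203 CPM in naïve brain. It was at 10365, 14053 and 13561 CPM in CT2A, 6122, 4967 and 3851 in GL261, 7172, 5588 and 1702 in 005 and 7174, 6851 and 8631 in Mut3. Every tumor sample lay above every naïve brain, and the 3 CT2A tumors lay above all other samples. Its log2 fold change against naïve brain was 3.68 ± 0.45 (SE) in CT2A (12.8-fold, edgeR adjusted p = 0.000185), 2.33 ± 0.43 in GL261, 2.29 ± 0.43 in 005 and 2.93 ± 0.44 in Mut3, and without 005 replicate 3 the 005 value was 2.62. Rplp2 rose by 1.69, 1.38, 1.17 (1.42 without 005 replicate 3) and 1.68 in CT2A, GL261, 005 and Mut3. Rplp1 rose by 1.73, 0.94 and 1.28 in CT2A, GL261 and Mut3, and its value of 0.78 in 005 missed the threshold (edgeR adjusted p = 0.086), while without 005 replicate 3 it was 0.92 and called.

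Rpl22 and its paralog Rpl22l1, whose proteins can take the same place on the large subunit, parted. Rpl22, on chromosome 4, was at 212.8, 184.3 and 238.8 CPM in naïve brain. It was at 1409, 2047 and 1894 CPM in CT2A, 1442, 1076 and 1107 in GL261, 956, 1044 and 359 in 005 and 1233, 1294 and 1509 in Mut3. No tumor sample overlapped naïve brain, and the log2 fold changes of 3.07 ± 0.36, 2.51 ± 0.35, 1.89 ± 0.35 and 2.67 ± 0.36 in CT2A, GL261, 005 and Mut3 were all called. Without 005 replicate 3 the 005 value was 2.17. Rpl22l1, on chromosome 3, was at 338, 172.5 and 445 CPM in naïve brain. It was at 512, 599 and 707 CPM in CT2A, 296.4, 257.4 and 152.1 in GL261, 503, 344 and 317 in 005 and 447, 345 and 185.1 in Mut3. Outside CT2A these ranges overlapped naïve brain, and its log2 fold changes of 0.93, -0.44, 0.28 and 0.03 were not called in CT2A, GL261, 005 or Mut3, nor was its 005 value of 0.34 without replicate 3. Rpl22l1 did differ between tumors, by 1.37 ± 0.40 between CT2A and GL261 (edgeR adjusted p = 0.048), a call that was lost in 12 of 24 alternative fits. The difference between the changes of the 2 paralogs was not itself tested.

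The other paralogs followed different courses. Rps27l, a gene known as a p53 target, was at 145.4, 119.9 and 199.4 CPM in naïve brain. It was at 653, 901 and 886 CPM in CT2A, 734, 632 and 513 in GL261, 626, 760 and 274.3 in 005 and 915, 921 and 1085 in Mut3, again with no overlap. Its log2 fold changes of 2.39, 2.02, 1.84 and 2.65 in CT2A, GL261, 005 and Mut3 stood beside 1.51, 1.05, 0.79 and 1.01 for Rps27, whose 005 value was not called (edgeR adjusted p = 0.061). Without 005 replicate 3 the 005 values were 2.09 for Rps27l and 0.88 for Rps27, both called. Rps27rt, an intronless copy of Rps27 on chromosome 9 that is annotated as coding, rose by 1.47, 1.33, 0.96 and 1.11. Its row held 244224 counts over all samples against 167656 for Rps27. As a coding row it was never added to Rps27, and how reads were divided between these rows was not tested. Rpl36al rose by 1.22, 1.23 and 1.11 in GL261, 005 and Mut3 and was at 0.79 in CT2A (edgeR adjusted p = 0.064), while Rpl36a rose in all 4. Rpl39 rose by 1.86, 1.45, 1.34 and 1.35, and Rpl3, of the peptidyl transferase center, was called only in CT2A (1.09), with 0.86, 0.49 and 0.53 elsewhere. In the fit lacking 005 replicate 3, the 005 values were 1.12 for Rps27rt, 1.47 for Rpl36al, 2.09 for Rpl36a and 1.60 for Rpl39, all called, and 0.61 for Rpl3, not called. Rpl7l1, a factor of large subunit assembly, rose by 1.64, 1.19, 1.39 and 1.34, and Rpl7 by 1.85, 1.79, 1.75 and 2.17, with 005 values of 1.66 and 2.05 without replicate 3. The tissue-restricted paralogs were near 0 in all samples: Rpl3l, of muscle, did not exceed 2.1 CPM, and Rpl39l and Rpl10l, of testis, did not exceed 1.1 and 0.45 CPM, where 3 counts correspond to 0.23 to 0.97 CPM. Rps19bp1, which fits the symbol rule but is a regulator of Sirt1 and not a ribosomal protein, was not called in any tumor with all samples (0.33, 0.59, 0.77 and 0.26), but was called in 005 without replicate 3 (0.90, edgeR adjusted p = 0.048).

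**Figure D3:**
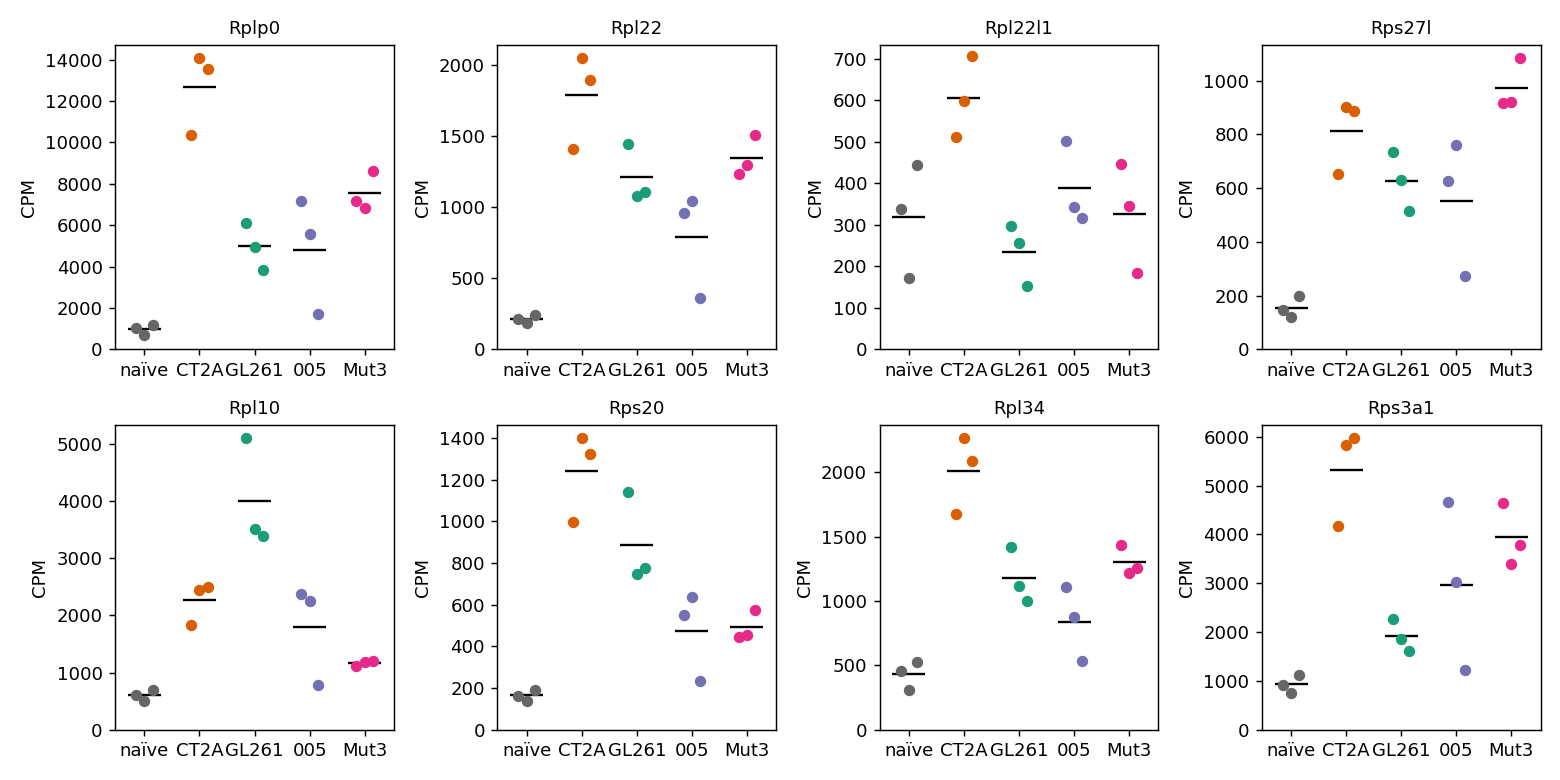
CPM of 8 members in each of the 15 samples, with bars at the group means. Rplp0, Rpl22 and Rps27l are higher in every tumor sample than in every naïve brain, Rpl22l1 overlaps naïve brain in GL261, 005 and Mut3, and Rpl10, Rps20, Rpl34 and Rps3a1 are members that differed between tumors.

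By level per length, the 5 highest members were Rps15a, Rpl27, Rps14, Rpl41 and Rps27rt. Without the division by length, Rplp0 averaged 6200 CPM over all samples, against 1450 for Rps15a and 1461 for Rpl27. Rps15a, a small subunit protein, had 4270 ± 536 TPM (SD, n = 3) in naïve brain and 14662 ± 1136, 10427 ± 970, 11512 ± 4912 and 10284 ± 356 TPM in CT2A, GL261, 005 and Mut3 tumors. Rpl41, which encodes the smallest protein of the ribosome, had 3570 ± 189.4 TPM in naïve brain, 6095 ± 626 in GL261 and 3551 ± 804 in Mut3, and its rise in CPM in Mut3 (0.79) was not called. Rps14 had 4169 ± 183.1 TPM in naïve brain and 4053 ± 207.0 in 005, where its log2 fold change in CPM was not called either (0.56, or 0.68 without replicate 3). Over the set, 34 members averaged at least 1000 TPM, 39 between 100 and 1000 TPM and 13 less than 100 TPM.

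Members with known roles outside the ribosome did not all pass the test. Rpsa, the 40S protein also known as the laminin receptor, rose by 2.25, 1.21, 1.46 and 1.62 in CT2A, GL261, 005 and Mut3. Rps27a, translated as a fusion with ubiquitin, rose by 1.83, 1.95, 1.21 and 1.84. Rps6, the substrate of the S6 kinases, rose by 0.99, 1.32, 0.87 and 1.40, and Rpl13a, a translational silencer of inflammatory mRNAs once released, by 1.00, 1.00, 0.86 and 0.90, among the smallest rises called in 005. Rpl11, which with Rpl5 and 5S rRNA binds Mdm2, rose by 1.53, 0.92 and 1.40 in CT2A, GL261 and Mut3 and was at 0.81 in 005 (edgeR adjusted p = 0.078), where it was 0.996 and called without replicate 3 (edgeR adjusted p = 0.0061). Rpl5 was called only in Mut3 on its own row, which held few of its counts. The other values here are also those of the gene rows. Pseudogene copies held 82.0% of the joint counts for Rps27a, 76.7% for Rps6, 51.4% for Rpsa and 51.3% for Rpl11. For Rpl13a they held 0.57%. With 005 replicate 3 left out, the 005 values were 1.70 for Rpsa, 1.42 for Rps27a, 0.999 for Rps6 and 1.003 for Rpl13a, all called. Large rises were also seen in CPM for Rps26 (2.30, 2.37, 2.38 and 2.11), Rps4x on the X chromosome (2.51, 2.54, 1.91 and 1.73) and Rps2 (2.92, 1.86, 2.51 and 1.97), whose 005 values were 2.72, 2.23 and 2.88 without replicate 3. Rpl21 lay at the low end, at 0.90, 0.98, 1.03 (1.22 without 005 replicate 3) and 1.01, and in Mut3 the smallest called rises were those of Rpl29 (0.70), Rps29 (0.85) and Rpl37 (0.87).

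Between tumors few members differed. The test for any difference among the 4 tumors called 9 of 82 members against 26.8% of all genes. Among these were Rpl5, Rpl10, Rpl12, Rpl29, Rpl34, Rplp0, Rps20 and Rps3a1. Pairwise, 2 members were called between CT2A and GL261 (7.96% of all genes), 3 between CT2A and 005 (4.16%), and 2 each between CT2A and Mut3 (13.2%), GL261 and 005 (2.63%), GL261 and Mut3 (18.0%) and 005 and Mut3 (20.7%). When 005 replicate 3 was left out, 17 members differed among the tumors (33.8% of all genes), and without Mut3 replicate 3, 4 did.

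Rpl10, an X-linked protein that joins the large subunit late in its assembly, was highest in GL261. It was at 613, 500.1 and 689 CPM in naïve brain and at 1830, 2449.5 and 2507 CPM in CT2A. It was at 5108, 3511 and 3397 CPM in GL261, 2381, 2249 and 785 in 005 and 1107, 1185 and 1208 in Mut3. All GL261 tumors lay above all other samples, and GL261 exceeded Mut3 by 1.78 ± 0.36 (edgeR adjusted p = 0.0052), a call kept in all 24 alternative fits. With matched pseudogene rows added, the difference was 1.503.

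Rps20, a small subunit protein, had its highest mean in CT2A. It was at 163.2, 138.6 and 191.4 CPM in naïve brain and at 995, 1399 and 1322 CPM in CT2A. It was at 1140, 746 and 777 CPM in GL261, 551, 636 and 234.7 in 005 and 446, 452 and 572 in Mut3. CT2A did not overlap 005 or Mut3 and exceeded them by 1.39 ± 0.34 and 1.34 ± 0.34 (edgeR adjusted p = 0.035 and 0.017). These calls were kept in 15 and 20 of 24 alternative fits, and without 005 replicate 3 the difference from 005 was 1.09. Rpl34 and Rpl29 were higher in CT2A than in 005 by 1.26 and 0.95 (edgeR adjusted p = 0.032 and 0.047), calls that were lost in 10 and 17 of 24 alternative fits. In the fit lacking 005 replicate 3, these values were 1.05 (called) and 0.85 (not called).

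Some differences on a gene's own row changed when the counts of its matched pseudogenes were added. How reads were divided between a gene and its copies was not tested. By sequence, 845 pseudogene rows matched a member over at least 80% of their length at 90% identity or more. They held 2.02% to 2.74% of counts in naïve brain, 3.16% in 005 replicate 3 and 6.12% to 8.34% in the other tumors. For 33 of 86 members, at least 50% of the counts of the gene and its copies stood in the copies, and for 22 less than 1% did.

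Identical copies show best the limit of reading a gene's row on its own. The 30 bases below are coding sequence of Rps12, Rpl5 and Rpl13, shown because each reads the same in the gene and in its copy. The Rps12 stretch (chr10:23786851-23786880, minus strand) recurs in Rps12l1, whose 399 bases all equal Rps12. The Rpl5 stretch (chr5:107901870-107901899, plus strand) recurs in Gm15500, and the Rpl13 stretch (chr8:123102659-123102688, plus strand) in Gm12918, with no base different in the 894 and 636 bases compared.
Rps12 and Rps12l1: catagctgctggaggtgtaatggacgtcaa
Rpl5 and Gm15500: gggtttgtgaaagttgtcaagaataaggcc
Rpl13 and Gm12918: atggcgcccagccggaatggcatgatactg

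Rps12, a small subunit protein, was listed at 0 in all 15 libraries, while Rps12l1 on chromosome 7 was at 437 CPM in naïve replicate 1 and at 3435 CPM in CT2A replicate 3. Rpl5 was at 12.9 to 39.7 CPM in all samples while Gm15500 was at 455 to 617 CPM in naïve brain and 691 to 2673 CPM in the tumors. On its own row Rpl5 was called only in Mut3 (1.06), whereas with its copies its log2 fold change was 2.12, 1.22, 1.71 (2.02 without 005 replicate 3) and 1.88 in CT2A, GL261, 005 and Mut3, all called. Rpl12 was at 2.9 to 4.2 CPM on its own row in naïve brain, at 9.6 to 13.4 CPM in GL261 and at 918, 969 and 21.2 CPM in 005. Its row gave changes of 5.56 in CT2A and 7.56 in 005 (8.06 without 005 replicate 3), and with copies added these were 2.33 and 2.14, and the difference between GL261 and 005 fell from -5.72 to -0.59 and was not called (edgeR adjusted p = 0.58). With 005 replicate 3 left out, the change with copies was 2.51 in 005 and the difference was -1.04, which was called (edgeR adjusted p = 0.014). Rpl13 was at 1018, 521 and 431 CPM in CT2A, but at 1034, 1404 and 1520 CPM together with its copies.

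**Figure D4:**
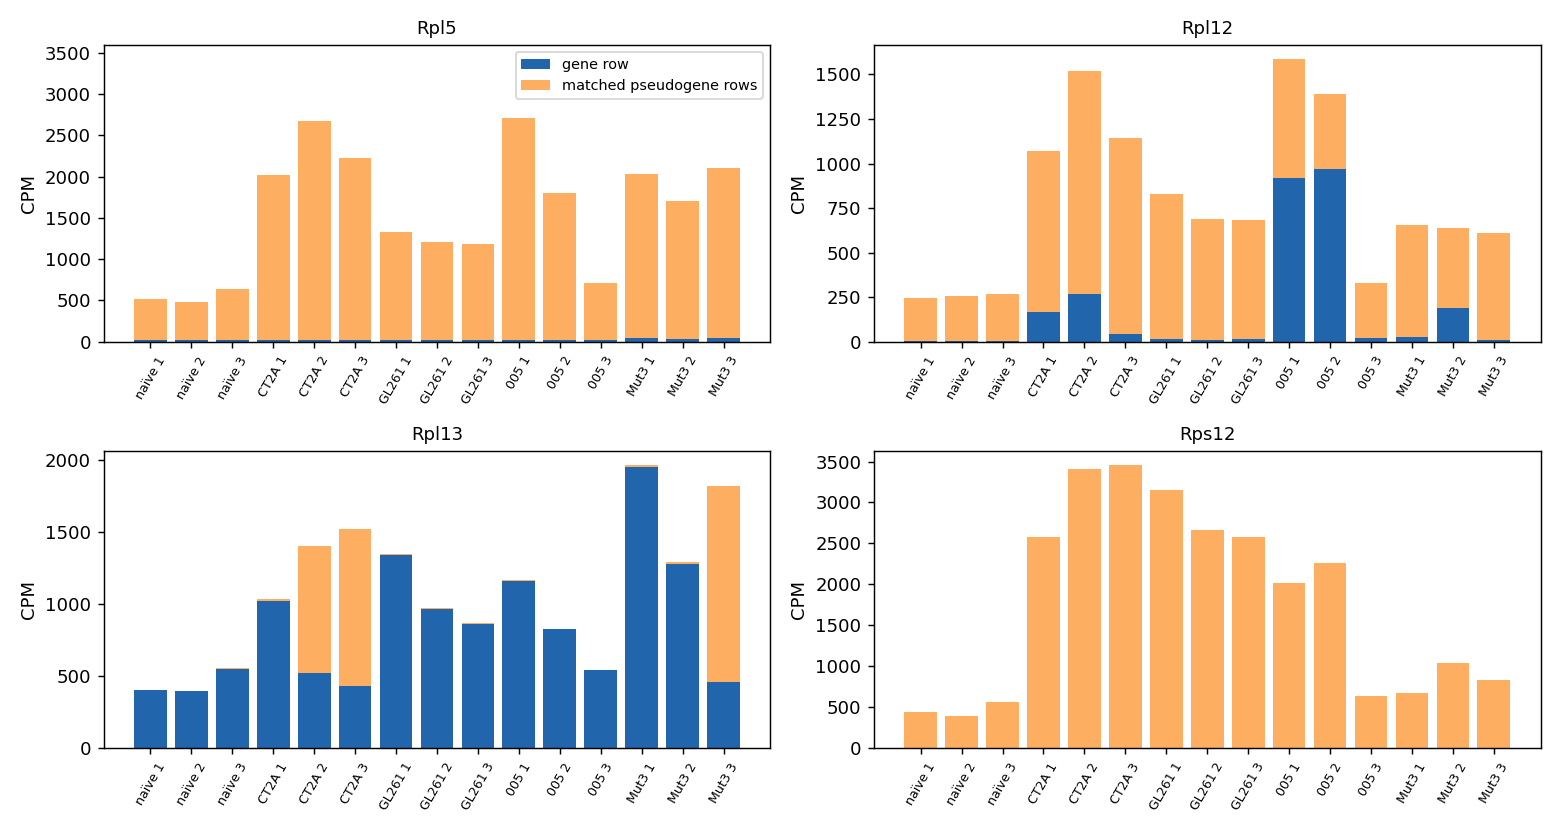
CPM of the gene row (blue) and of the pseudogene rows that match it by sequence (orange, stacked) for Rpl5, Rpl12, Rpl13 and Rps12 in each sample. The Rps12 row is at 0 throughout, and the Rpl13 row falls in CT2A replicates 2 and 3 and Mut3 replicate 3, where the rows of its copies hold counts.

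With matched pseudogene counts added to their gene, the members' rise remained, and 83 genes could be tested. The count of higher members was 80 for CT2A (19.8% of all genes), 76 for GL261 (14.7%), 61 for 005 (11.6%) and 75 for Mut3 (19.2%). Rpl22l1 and Rps19bp1 were the members called in no tumor. When 005 replicate 3 was left out, 81 were higher in 005 (18.3% of all genes), Rps19bp1 among them. Among the 4 tumors 4 members were then called (27.5% of all genes), namely Rpl10, Rplp0, Rps12 and Rps20. In the fit lacking 005 replicate 3, 13 were called (34.5% of all genes), those 4 included. Rps12 with its copies was at 441, 387 and 554 CPM in naïve brain. It was at 2573, 3406 and 3457 CPM in CT2A, 3154, 2667 and 2581 in GL261, 2014, 2258 and 636 in 005 and 672, 1035 and 830 in Mut3. Mut3 lay below CT2A by 1.90 ± 0.39 and below GL261 by 1.72 ± 0.39 (edgeR adjusted p = 0.0054 and 0.0093). Its rise over naïve brain was 2.81, 2.63 and 1.86 (2.18 without replicate 3) in CT2A, GL261 and 005, and 0.91 in Mut3, which was not called (edgeR adjusted p = 0.070).

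The rest of the translation machinery moved to different extents, and its counts are read beside the share of all tested genes called higher, 20.3% in CT2A, 15.1% in GL261, 11.8% in 005 (18.6% without replicate 3) and 19.3% in Mut3. Of 3 ribosomal proteins whose symbols the rule misses, 3 were called higher in CT2A, GL261 and Mut3 and 2 in 005, with or without replicate 3. Fau, a ubiquitin-like fusion with a small subunit protein, rose by 1.97, 0.99, 1.27 and 1.02 in CT2A, GL261, 005 and Mut3. Rack1, a signaling scaffold on the small subunit, rose by 2.59, 2.34, 1.92 and 2.403, and without replicate 3 the 005 values were 1.47 and 2.24. Of 13 translation factors and other genes known for TOP tracts, 10 rose in CT2A and 9 in each of GL261, 005 and Mut3, with none called lower, and 12 rose in 005 without replicate 3. Among them, Eef1a1, the main elongation factor that brings aminoacyl-tRNA to the ribosome, rose by 2.11, 1.69, 1.16 (1.37 without 005 replicate 3) and 1.66 in CT2A, GL261, 005 and Mut3. Eef1a2, its counterpart in neurons and muscle, fell in CT2A (-3.95) and Mut3 (-5.60) and was at -1.72 in GL261 and -1.93 in 005, which missed the threshold. Without replicate 3 its 005 value was -4.32 and was called.

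Of 31 ribosome assembly factors, 15, 9, 5 and 16 were called higher in CT2A, GL261, 005 and Mut3, with 1 lower in GL261 and 1 in Mut3, and medians of 0.99, 0.53, 0.78 and 0.99. The 005 count, near the share of all genes with all samples, was 18 without replicate 3, with a median of 0.98. Nop58 (2.38, 1.28, 1.73 and 1.31) and Ncl (2.24, 1.35, 1.61 and 1.63), nucleolar proteins of rRNA processing, rose in all 4 tumors, with 005 values of 2.08 and 1.98 without replicate 3. Of 11 genes of rRNA synthesis, 3, 1, 1 and 4 rose in CT2A, GL261, 005 and Mut3, and 1, Taf1b, fell in CT2A (-1.61), counts of higher genes near or below the share of all genes in GL261 and 005. With 005 replicate 3 left out, 5 rose and Taf1b fell (-1.18) in 005. Polr1e, a subunit of RNA polymerase I, rose in CT2A (2.11), GL261 (1.65) and Mut3 (2.26), and in 005 without replicate 3 (1.28). Of 10 genes of mTOR control of TOP mRNAs, 1 rose and 1 fell in CT2A, 1 rose and 1 fell in GL261, 1 rose in 005 and 2 rose in Mut3. Eif4ebp1, a repressor of cap-dependent translation that mTOR inactivates, rose in all 4 tumors (4.05, 2.94, 3.86 or 4.30 without 005 replicate 3, and 2.94). The list's median was -0.24, -0.18, 0.28 (0.19 without 005 replicate 3) and 0.26. Larp1, which binds the TOP tract, was at -0.04, 0.18, 0.38 (0.42 without 005 replicate 3) and 0.00 and was not called. The kinase gene Mtor fell in GL261 (-1.27), Rheb, its activator, fell in CT2A (-0.64) and in 005 without replicate 3 (-0.79), and Rps6kb1, an S6 kinase, rose in Mut3 (1.13).

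The mitochondrial ribosome, a separate machine that translates mitochondrially encoded mRNAs, had smaller medians than the cytosolic ribosome in each tumor. Of 78 genes of its proteins, 15 rose and 7 fell in CT2A, 9 rose and 3 fell in GL261, 5 rose and 0 fell in 005, and 27 rose and 2 fell in Mut3. The share that rose was 19.2% in CT2A, 11.5% in GL261 and 6.41% in 005, at or below that of all genes, and 34.6% in Mut3, above it. When 005 replicate 3 was left out, 15 rose and 0 fell in 005, with a median of 0.22. Its medians were 0.22, 0.05, 0.18 and 0.56, against 1.64, 1.42, 1.22 and 1.42 for the cytosolic members in the same fits. Mrpl51 rose in all 4 tumors (1.37, 1.41, 1.08 or 1.23 without 005 replicate 3, and 0.94), and Mrps34 fell in CT2A (-1.41), GL261 (-0.94) and Mut3 (-0.79).

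**Figure D5:**
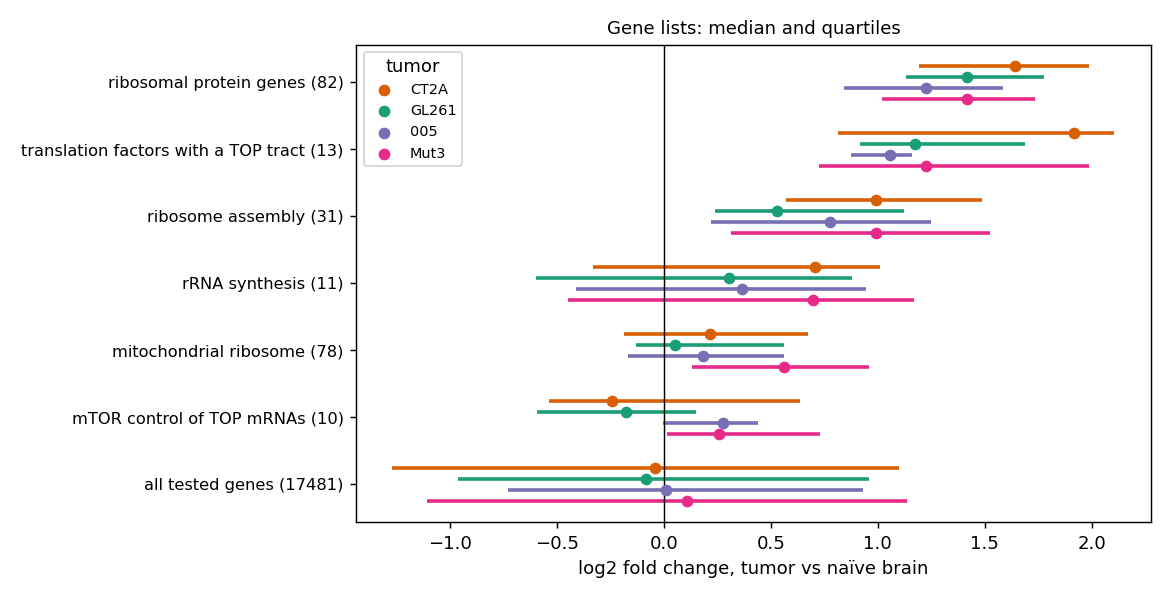
Median (points) and quartiles (lines) of log2 fold changes against naïve brain for 6 gene lists and all tested genes, in each tumor, with the number of genes tested in parentheses. The ribosomal protein genes lie between 1.22 and 1.64 and the mitochondrial ribosome between 0.05 and 0.56.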

How the data were processed

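Whole-transcriptome libraries were aligned by the authors with STAR v2.4.2a to the mouse genome with GENCODE annotation. The submitters' processing notes also name Salmon, DESeq2 1.18.1 and mm10 without a role. The deposited files hold estimated counts and TPM for 46679 genes in 15 samples, and the count to TPM ratio splits into a gene and a sample term, so the tables are not independent. Of the gene IDs, 46269 were found in GENCODE M21 (GRCm38). Counts were rounded and tested with edgeR 4.0.16 (TMM, filterByExpr, quasi-likelihood, 1 fit of 5 groups, Benjamini-Hochberg over all genes tested). TPM served to compare genes, with a pseudocount of 1 on the log2 scale. CPM values are TMM-scaled. The labels number 3 samples per group, which the authors give as 3 mice. Totals of 3105119 to 13130158 counts limit precision to counting error at 0.23 to 0.97 CPM per 3 counts.

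Members and gene lists were chosen with earlier results of these data known. Named members were the paralogs and their partners, the 5 highest in TPM, 9 with known roles, and those with the 3 largest and 3 smallest called changes against naïve brain or the 2 largest between tumors (at least 10 TPM in the higher group). Examples from other gene lists, and Rpl13, were chosen after their values were seen. Some genes are not reported here. Fits were tested on simulated data. Adding matched pseudogene counts (blastn, at least 90% identity over 80% of the pseudogene transcript) and recounting the gene lists without 005 replicate 3 were chosen after seeing the data. DESeq2 1.42.0 and other filters, scalings and left-out samples were tried.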

Additional observations from a re-analysis of the deposited data

Results flagged for a closer look

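Differences between tumor lines in single members that passed the test, each a test of the difference in their change from naïve brain, included the following (edgeR, log2, first line minus second). Between CT2A and GL261 they were Rps3a1 (1.47) and Rpl22l1 (1.37), between CT2A and 005 Rps20 (1.39), Rpl34 (1.26) and Rpl29 (0.95), and between CT2A and Mut3 Rps20 (1.34) and Rpl5 (-1.09). Between GL261 and 005 it was Rpl12 (-5.72), between GL261 and Mut3 Rpl10 (1.78) and Rpl5 (-1.22), and between 005 and Mut3 Rpl5 (-0.98). With matched pseudogene counts added and all samples kept, the differences in Rps20, Rpl22l1 and Rpl10 were still called. Those in Rps3a1, Rpl34, Rpl29, Rpl5 and Rpl12 were not, though Rpl12 was called again when 005 replicate 3 was also left out. In that fit Rps3a1, Rpl34 and Rpl5, but not Rpl29, were also called in the test for any difference among the 4 tumors. The comparisons share samples and are not independent of each other.

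Pseudogene rows outside the rule held signal in a single line. Of the 845 matched rows, 6 had at least 20 CPM in every sample of 1 line and at least 10 times the highest sample elsewhere, limits chosen after the values were seen. Rps3a2, a copy of Rps3a1 on chromosome 14, averaged 569 CPM in GL261, where it was at 735, 527 and 445 CPM, and did not exceed 6.9 CPM elsewhere. The Rps3a1 row itself was lower in GL261 (2271, 1867 and 1616 CPM) than in CT2A (4165, 5825 and 5982 CPM). With its copies and all samples the difference was 1.10 and no longer called (edgeR adjusted p = 0.099). Without 005 replicate 3, Rps3a1 with its copies was called in the test for any difference among the 4 tumors. Gm10036, a copy of Rpl11, averaged 184.3 CPM in GL261 and did not exceed 7.7 CPM elsewhere.

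In Mut3, 3 copies of Rpl15 on different chromosomes were high together: Gm10020 averaged 521 CPM, Gm8420 295.3 CPM and Gm14094 115.5 CPM, with highest values elsewhere of 9.3, 5.7 and 3.2 CPM. A further copy, Rpl15-ps3, was at 316, 398 and 306 CPM in Mut3 and at 740 to 1675 CPM in CT2A, GL261 and the first 2 of the 005 tumors. Gm37009, a copy of part of Rps2, averaged 132.0 CPM in Mut3 and did not exceed 6.8 CPM elsewhere. Whether these rows mark transcripts of the copies or reads of a gene that differs in sequence between lines was not tested.

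Rps3a2 and Gm10020 can be told from their genes by few bases, whereas Gm8420 and Gm14094 matched Rpl15 at only 96.6% and 94.6% identity. In the stretches below, capitals mark bases that differ, with positions counted from 1 at the 5′ end of the stretch: A7T and T30C from Rps3a1 to Rps3a2, and A16G from Rpl15 to Gm10020. Rps3a2 differed from Rps3a1 at 4 of 792 bases and Gm10020 from Rpl15 at 2 of 612.
Rps3a1 (chr3:86138488-86138517, minus strand): aaaagtAaaaatgctgaagaaacccaagtT
Rps3a2 (chr14:88123141-88123170, minus strand): aaaagtTaaaatgctgaagaaacccaagtC
Rpl15 (chr14:18270281-18270310, minus strand): agctcgaagactgggAtacaaggctaagca
Gm10020 (chr15:52478059-52478088, minus strand): agctcgaagactgggGtacaaggctaagca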

How the results depend on the processing

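Members called against naïve brain stayed within 1.5 times in CT2A, GL261 and Mut3 under all alternatives, and ranged with 1 sample left out from 67 to 78 in CT2A, 51 to 74 in GL261, 61 to 76 in Mut3 and 21 to 72 in 005. With only the samples compared, 1 was called in 005. The counts between tumors were small and unsteady, and the cause was not tested. Among the 4 tumors (9) they were 17 with library size only, 16 with DESeq2, 4 with pseudogene counts added and 4 to 17 with 1 sample left out. For CT2A and GL261 (2) they were 5 with library size only, 6 with DESeq2, 4 with no filter, 4 with 10 counts in every sample, 11 with only the samples compared, 1 with pseudogenes and 0 to 12 leaving 1 out. For CT2A and 005 (3) they were 7, 11, 5 with 10 counts in every sample, 0 with only the samples compared, 1 with pseudogenes and 0 to 4. For CT2A and Mut3 (2) they were 1 with no filter, 10 with only the samples compared and 0 to 5. For GL261 and 005 (2) they were 0 with only the samples compared, 0 with pseudogenes and 0 to 4. For GL261 and Mut3 (2) they were 4 with library size only, 4 with no filter, 8 with only the samples compared and 2 to 9. For 005 and Mut3 (2) they were 6 with library size only, 4 with DESeq2, 1 with no filter, 0 with only the samples compared, 1 with pseudogenes, 0 at a log2 fold change of at least 1 and 0 to 7. Replicate numbers did not pair the samples (correlations of deviations -0.33 to 0.26 over 30 pairs), and the replicate block gave 39 members in 005 against naïve brain, 1 for CT2A and GL261, 0 for CT2A and 005 and 1 for GL261 and 005.

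Library sizes and TMM factors were also taken without members and mitochondrial genes. The median of all tested genes was then 0.16 in CT2A and 0.28 in Mut3, instead of -0.04 and 0.11. The median log2 fold change of members was 1.84 in CT2A and 1.60 in Mut3 in that fit, and 1.60 in Mut3 with pseudogenes. It was 0.68, 0.63, 0.56 and 0.62 in CT2A, GL261, 005 and Mut3 on the log2(TPM + 1) scale. Leaving 1 sample out gave 1.58 to 1.82, 1.34 to 1.61, 0.96 to 1.47 and 1.38 to 1.60. Summed TPM of members averaged 70340 in naïve brain, and 77412 without mitochondrial genes. As CPM of the total count the sums of CT2A, GL261, Mut3 and naïve brain averaged 146154, 130537, 131690 and 47773, and with -ps rows included the TPM sums averaged 106108, 178856, 168541, 162550 and 169756 in naïve brain, CT2A, GL261, 005 and Mut3. Adding pseudogene counts turned Rpl5 from -0.03 to 2.12 in CT2A and from -0.16 to 1.22 in GL261 against naïve brain, and from -1.09 to 0.25 between CT2A and Mut3. No other value of a named member that was called in either fit turned direction. Depth limits the lowest members: Rpl3l, Rpl10l, Rpl39l and the Rps12 row could not be tested.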
